A study of Homo sapiens with 12 samples.

Results

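RNA of sorafenib-resistant Huh7 cells was compared with RNA of parental Huh7 cells to ask which genes differ in a liver cancer line that has survived long exposure to the drug. Huh7 is an established human hepatocellular carcinoma line, and sorafenib is an oral inhibitor of RAF kinases and of several receptor tyrosine kinases that is given for advanced liver cancer. The members are the 6 Huh7 libraries of the 12 in the series, 3 resistant and 3 parental, and they were chosen by their labels without any measured value. Per the labels, all were wild type and the parental cells had no drug. Resistant cells were made over 8 months from a first dose of 10 μmol, by repeated rounds of exposure for 24 h, drug removal, recovery of the survivors and a higher dose. Neither the labels nor the study's methods say whether the 3 libraries of a group came from separate cultures, so p-values measure the spread between these libraries, which may be technical. They also do not give the last dose, or the time between the last exposure and the harvest of RNA, so lasting and recent effects of the drug cannot be told apart.

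As background, hepatocytes and liver cancer cells are recognised by the plasma proteins they secrete and by HNF4A and related transcription factors, and liver tumours often express alpha-fetoprotein (AFP). NRF2, which KEAP1 holds back, is the transcription factor that turns on antioxidant enzymes and enzymes that make NADPH. YAP, working with TEAD factors, drives genes of cell spreading and matrix contact, and ERK, which lies downstream of RAF kinases, drives FOS-type factors together with the phosphatases that limit its own activity.

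The values are FPKM, a level scaled by the length of the gene's exons and by sequencing depth. Their steps in genes with a single exon gave 16158293 to 19285948 reads per library, and the 3 parental libraries were shallower than the 3 resistant ones. The test covered 12554 of the 27249 genes with an Ensembl identifier, those that reached 1 FPKM in 3 or more libraries. Calls came from limma's moderated test on log2(FPKM + 1). They needed an absolute log2 fold change above 1 and, after Benjamini-Hochberg adjustment, p below 0.05. On this scale fold changes of low genes are understated. Fold changes are resistant against parental, FPKM values are given per library or as mean ± SD over the 3 libraries of a group, and every adjusted p-value named below is from limma over all genes tested. Resistant cells had 1079 genes called higher (8.59% of the genes tested) and 1759 called lower (14.0%), and in 9350 genes (74.5%) the groups did not overlap, with the resistant libraries above in 35.2% and below in 39.2%. Over the whole set tested, the log2 fold change had a median of -0.04.

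The fold change moved with the base composition of the gene. Across 12545 genes, which are not independent replicates, Spearman's rho between the log2 fold change and the GC content of the exons was 0.63. In the fifth of the genes with the lowest GC content 23 were called higher and 963 lower, and in the fifth with the highest 501 and 22. Each library's deviation from the mean of the 6 libraries also followed GC content, with rho from 0.42 to 0.67 in resistant and from -0.67 to -0.43 in parental libraries, so that this trend and the groups cannot be told apart. With the GC trend of each library removed, 706 genes were called higher (5.62%) and 731 lower (5.82%); 464 genes (3.70%) were called higher both ways and 554 (4.41%) lower both ways. Gene groups are therefore given with the number called both ways, or with the names of the genes that were. A group's share of calls is to be read against the 8.59% higher and 14.0% lower of all genes. Its share called both ways is to be read against 3.70% and 4.41%. Beyond these counts, the part of the GC trend in a group's difference was not tested. The lists and their members were chosen with earlier results of these data known, so their shares are descriptions and carry no independent weight.

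**Figure D1:**
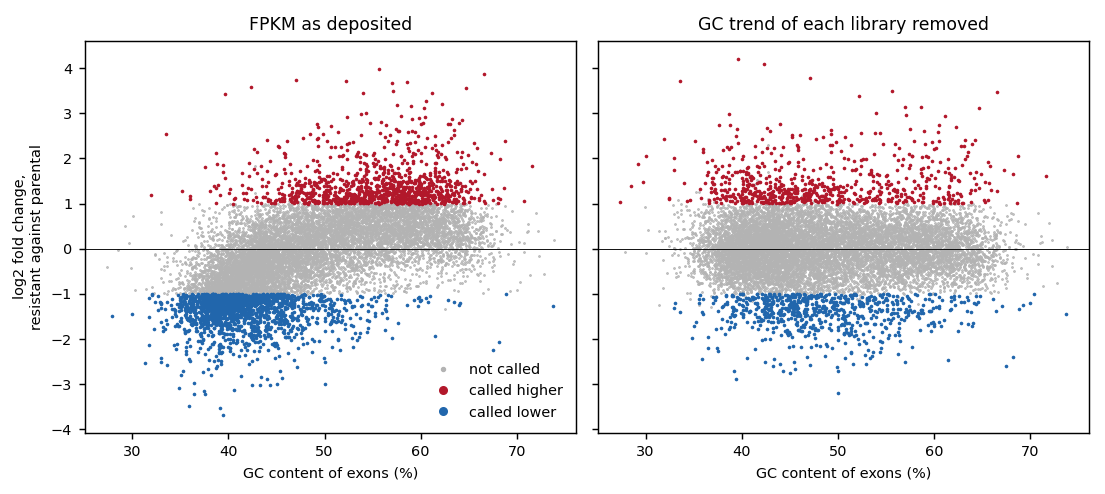
Log2 fold change of resistant against parental Huh7 cells (vertical axis) by GC content of the exons in percent (horizontal axis), 1 point per gene, for FPKM as deposited (left) and with the GC trend of each library removed (right); red and blue points are genes called higher and lower. On the left the called genes lie along a rising band, with 963 lower calls and 23 higher calls in the 2509 genes of lowest GC content, and on the right the band is level.

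The largest rises included secreted, calcium-binding and detoxifying proteins. The 12 protein-coding genes with the largest increase, among those with a mean of at least 5 FPKM in the higher group, were S100A9, CD7, NQO1, S100P, FGF19, PRSS3, AGR2, SPDEF, CDA, CYP2S1, GPX2 and TRH, and each was called higher both ways. S100A9 (chr1:153357854-153361027, GRCh38), a calcium-binding protein best known from neutrophils, read 70.1, 61.6 and 73.8 FPKM in the resistant and 4.06, 3.09 and 3.11 in the parental libraries. That is the largest log2 fold change of the 12, at 3.98 (SE 0.13, adjusted p = 2.81e-06). NQO1 (chr16:69706996-69726951), the quinone reductase that is a standard NRF2 target, read 715, 685 and 730.3 FPKM against 58.1, 52.9 and 47.2 (log2 fold change 3.73, SE 0.12, adjusted p = 2.81e-06). It was the most abundant of the 12 in resistant cells and the groups were far apart, with a ratio of means of 13.5. S100P, a calcium-binding protein of epithelial tumours, read 253, 199 and 253 FPKM against 21.6, 13.5 and 16.2. FGF19 (chr11:69698232-69704642), the hormone that limits bile acid synthesis through FGFR4, read 224, 191 and 209 FPKM in resistant and 17.3, 17.1 and 11.5 in parental cells, a 13.6-fold higher mean.

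Among the other members of the 12, AGR2, a protein disulfide isomerase of mucus-secreting cells, rose from 2.95 ± 0.442 to 46.1 ± 5.03 FPKM, and SPDEF, an ETS factor of secretory epithelium, from 0.349 ± 0.0603 to 15.1 ± 2.81 FPKM. GPX2, the gastrointestinal glutathione peroxidase, rose from 23.6 ± 3.6 to 266 ± 37.3 FPKM. CD7, a surface protein known from T cells, rose from 7.71 ± 1.66 to 127 ± 35.9 FPKM, while PTPRC and CD3E, other leukocyte genes, had means of at most 1.06 FPKM in both groups. CDA, the cytidine deaminase that inactivates gemcitabine and cytarabine, rose from 0.886 ± 0.296 to 20.2 ± 3.16 FPKM. CYP2S1, a cytochrome P450 expressed outside the liver, rose from 0.854 ± 0.203 to 19.5 ± 3.15 FPKM. PRSS3, a trypsinogen with near-identical copies whose reads may be shared, rose from 2.12 ± 0.699 to 38.3 ± 7.21 FPKM, and TRH, the thyrotropin-releasing hormone, from 0.196 ± 0.0743 to 10.6 ± 1.32 FPKM. In all 12 genes the lowest resistant library lay above the highest parental one.

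The largest falls included membrane proteins, secreted signals and transcription factors. TMEM47 (chrX:34627064-34657288), a membrane protein of cell junctions, read 0.468, 0.256 and 0.298 FPKM in resistant and 12.7, 15.2 and 15.3 FPKM in parental cells (log2 fold change -3.52, SE 0.12, adjusted p = 2.91e-06). SLC6A14 (chrX:116436622-116461458), a broad amino acid transporter, read 1.66, 1.48 and 1.49 FPKM against 19.1, 19.8 and 26.3. In both genes every resistant library lay far below the lowest parental one. DACH1, a transcriptional cofactor of development, fell from 9.98 ± 0.363 to 0.353 ± 0.0534 FPKM and AFF3, a nuclear factor of transcription elongation complexes, from 7.46 ± 0.388 to 0.569 ± 0.0314 FPKM. SLIT2, a secreted guidance molecule of axons and vessels, fell from 9.96 ± 0.788 to 0.674 ± 0.124 FPKM, and CXCL8, the neutrophil chemokine interleukin 8, from 20.9 ± 1.91 to 3.03 ± 0.473 FPKM. ERP27, a chaperone-like protein of the endoplasmic reticulum, fell from 11.3 ± 0.409 to 0.718 ± 0.233 FPKM and MBNL2, a splicing regulator, from 29.4 ± 4.14 to 5.02 ± 0.247 FPKM. CHST9, a sulfotransferase of glycans, fell from 13.1 ± 2.15 to 1.5 ± 0.135 FPKM. CCNB3, a meiotic cyclin, fell from 13.1 ± 0.293 to 1.64 ± 0.177 FPKM. ZNF117, a zinc finger gene, fell from 12.4 ± 3.05 to 1.23 ± 0.243 FPKM, and DCDC2, a microtubule-binding protein of cilia that shares 11.9% with KAAG1, from 10.5 ± 1.33 to 0.842 ± 0.128 FPKM. All 12 were called lower both ways, and in each the highest resistant library lay below the lowest parental one.

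**Figure D2:**
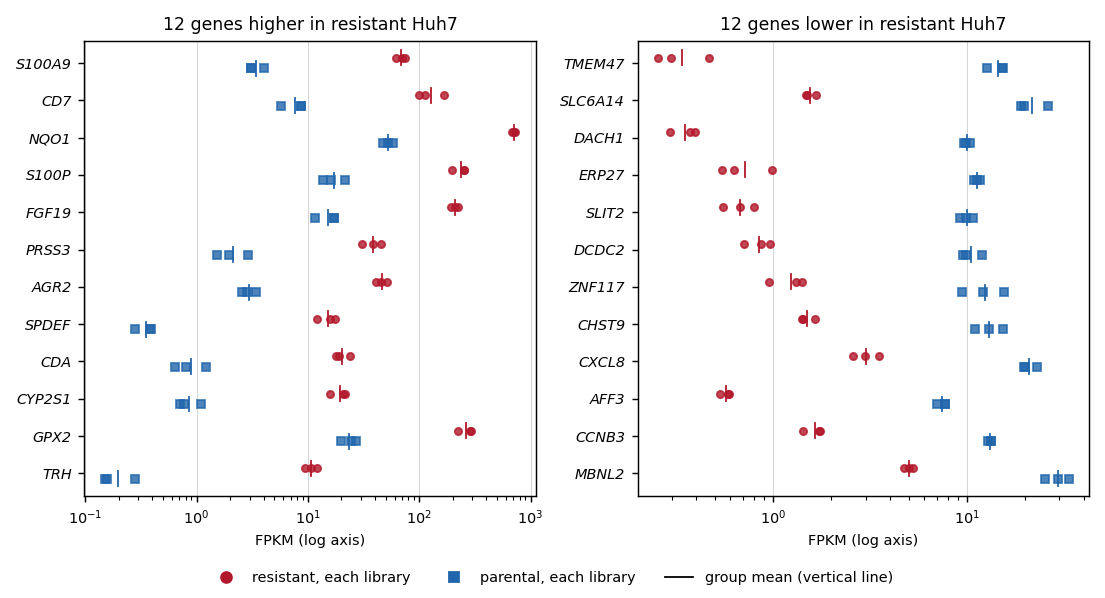
FPKM on a log axis of the 12 protein-coding genes with the largest increase (left) and the largest decrease (right) in resistant Huh7 cells; red circles are the 3 resistant libraries, blue squares the 3 parental libraries, and vertical lines the group means. No gene has overlapping groups, and NQO1 stands highest among the rising genes at 685 to 730.3 FPKM.

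By difference in level rather than ratio, histones, APOA2 and GSTP1 led the rises and AFP led the falls. Of the 6 genes with the largest rise in mean FPKM, 4 were histone genes, led by HIST1H3B (1315 ± 271 to 2936 ± 515 FPKM), and their near-identical copies make the share of each uncertain; with the GC trend removed only HIST1H4D of the 4 was called. APOA2, an apolipoprotein of high-density lipoprotein, rose from 499.9 ± 22.4 to 1472 ± 169 FPKM. GSTP1, a glutathione transferase that is raised in many tumours, rose from 409.8 ± 75.4 to 1167 ± 225 FPKM, but the fold change with the GC trend removed was 0.99, just under the threshold. AFP read 2115, 2415 and 2343 FPKM in resistant and 4623, 5066 and 6306 FPKM in parental cells, a fall of the mean to 0.43 of its parental level (log2 fold change -1.21, SE 0.18, adjusted p = 0.000534). The AFP groups did not overlap, but the call was lost with the GC trend removed (log2 fold change -0.49). HSP90AA1, the stress-inducible HSP90, fell from 211 ± 59.8 to 70.5 ± 2.77 FPKM and RELN, the secreted matrix protein reelin, from 113 ± 5.41 to 27.2 ± 2.15 FPKM, and both were called lower both ways. MSMO1, a sterol oxidase, CSE1L, a nuclear export factor, and SELENOP, the plasma selenium carrier, also fell, and these were not called with the GC trend removed (log2 fold change -0.39, -0.21 and -0.55). SELENOP shares 25.5% of its exon bases with CCDC152, and whether the counting used strand is not given in the sources used here.

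In this list, chosen with earlier results of these data known, a larger share of NRF2 targets than of all genes rose. Those that rose included enzymes of the pentose phosphate pathway and enzymes that reduce quinones and carbonyls. Of the 24 targets tested, 10 rose (41.7%, against 8.59% of all genes) and 1 fell, with a median log2 fold change of 0.88, and 7 of the rises were called both ways. Besides NQO1, these were TKT, TALDO1 and PGD of the pentose phosphate pathway, and the aldo-keto reductases AKR1C1, AKR1C2 and AKR1B10. AKR1C1 read 199.6, 192 and 193 FPKM against 46, 42.4 and 41.4, and AKR1C2 53, 48.8 and 53.2 FPKM against 9.79, 8.5 and 8.48. The sequences of this pair are nearly identical, so reads may be shared between them. AKR1B10, a reductase raised in liver tumours, rose from 0.383 ± 0.0427 to 3.44 ± 0.484 FPKM. OSGIN1 and the drug exporter ABCC1 rose as well (log2 fold change 1.16 and 1.32), and were not called with the GC trend removed.

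The genes of glutathione synthesis were not called higher. GCLC and GCLM, the subunits of the rate-limiting enzyme, had log2 fold changes of -0.35 and -0.14 (adjusted p = 0.026 and 0.271). SLC7A11, the cystine importer that feeds the pathway and protects against ferroptosis, fell from 22.7 ± 3.94 to 9.67 ± 1.38 FPKM (log2 fold change -1.15), and with the GC trend removed its log2 fold change was -0.10. HMOX1, the heme oxygenase, was at 0.49, TXNRD1, a thioredoxin reductase, at 0.74, GSR, the glutathione reductase, just under the threshold at 1.00, and none of these was called. NFE2L2, the gene of NRF2 itself, had a log2 fold change of -0.53, and it and KEAP1 were not called. Of the 25 ferroptosis regulators tested, 4 rose (16%, against 8.59% of all genes) and 2 fell (8%, against 14.0%). Called both ways were 2 rises: RPL8, a ribosomal protein, and SAT1, the enzyme of polyamine breakdown (24.9 ± 2.5 to 66.5 ± 3.05 FPKM). CS, the citrate synthase, also rose (1.09), DHODH, a mitochondrial enzyme of pyrimidine synthesis, rose (1.9 ± 0.257 to 5.05 ± 0.563 FPKM) and CISD1, an iron-sulfur protein of mitochondria, fell (7.52 ± 1.45 to 2.79 ± 0.544 FPKM), none of these 3 with the GC trend removed.

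Many genes of glycolysis and the pentose phosphate pathway rose in resistant cells. Of 31 genes tested, 14 rose (45.2%, against 8.59% of all genes) and 1 fell, with a median log2 fold change of 0.86. Of these, 7 rises and 1 fall were called both ways. SLC2A1, the glucose transporter GLUT1, read 67.7, 55.8 and 59.9 FPKM against 19.2, 15 and 15. TPI1, ENO1 and PKM, enzymes of the lower part of glycolysis, rose from 69.7 ± 9.18 to 203 ± 23.8, from 51 ± 7.07 to 172 ± 27.5 and from 22.1 ± 3.27 to 80.3 ± 11 FPKM. These 4 genes were called both ways, and none of them had overlapping groups.

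The largest change of the pathway was in TKT, the transketolase that links the pentose phosphate pathway to glycolysis. It read 74.8, 56.8 and 69.8 FPKM in resistant and 11.9, 10.5 and 8.32 FPKM in parental cells (log2 fold change 2.61, SE 0.15, adjusted p = 1.02e-05). TALDO1, the transaldolase of the same branch, rose from 20.1 ± 3.32 to 76.8 ± 9.29 FPKM. PGD, which makes NADPH, rose from 19.3 ± 3.15 to 55.5 ± 4.02 FPKM, and both were called both ways. GAPDH, a glycolytic dehydrogenase often used as a reference gene, rose from 219.9 ± 17.2 to 628 ± 103 FPKM, and GPI, PGAM1, PFKM, HKDC1 and PFKFB3 rose with log2 fold changes of 1.45, 1.11, 1.09, 1.09 and 1.37. These were not called with the GC trend removed. LDHA, which makes lactate, and PGK1, which makes ATP, were at 0.47 and 0.63 and not called. Among the liver isoforms, SLC2A2, the liver glucose transporter, and PKLR, the liver pyruvate kinase, had log2 fold changes of -0.94 and -0.86, under the threshold, though PKLR was called lower with the GC trend removed (-1.42). Of the 9 gluconeogenesis genes tested, GOT1, GOT2 and MDH2 of the malate-aspartate shuttle rose (1.30, 1.25 and 1.23), not with the GC trend removed (0.99, 0.95 and 0.80), and MDH1, PCK2, SLC37A4, PC and FBP1 lay between -0.15 and 0.99.

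**Figure D3:**
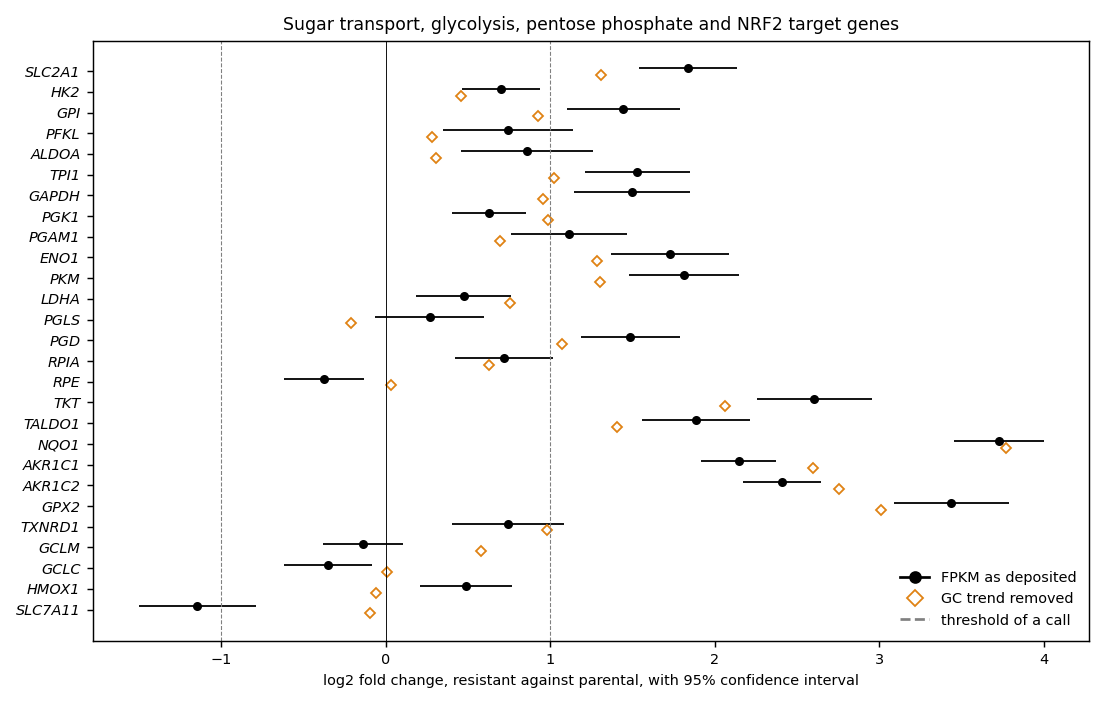
Log2 fold change of resistant against parental Huh7 cells (horizontal axis) for genes of sugar uptake, glycolysis, the pentose phosphate pathway and NRF2 targets (1 gene per line); black points with bars are limma estimates with 95% confidence intervals over 3 libraries a group, orange diamonds the same estimates with the GC trend removed, and dashed lines the threshold of a call. NQO1 (3.73), TKT (2.61) and AKR1C2 (2.41) lie far to the right, as does GPX2 (3.44), and SLC7A11 (-1.15) lies beyond the lower threshold.

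Nucleotide and amino acid supply changed at single steps. Of 25 genes of nucleotide synthesis and salvage, 4 rose (16%, against 8.59% of all genes) and 0 fell. The rises were CDA, IMPDH1 of guanine nucleotide synthesis (8.83 ± 1.98 to 30.1 ± 3.96 FPKM), ATIC of purine synthesis (42.9 ± 3.75 to 120.4 ± 7.61 FPKM) and UCK2, a uridine kinase (3.69 ± 0.691 to 8.75 ± 0.295 FPKM), the first 3 of them both ways. Of 23 amino acid transporters, 4 rose (17.4%, against 8.59% of all genes), all of them both ways: SLC7A8, SLC1A5, SLC6A12 and SLC38A4. SLC1A5, the glutamine transporter ASCT2, read 33.7, 25.5 and 27.5 FPKM against 9.27, 7.84 and 6.11. SLC6A14, SLC7A11, SLC1A1 and SLC38A2 fell (17.4%, near the 14.0% of all genes), and only SLC6A14 did so both ways. HAL, the histidine ammonia-lyase of liver and skin, rose from 2.48 ± 0.328 to 22.8 ± 2.72 FPKM and was the largest change of 20 urea cycle and amino acid breakdown genes. Of the 20, 5 rose (25%, against 8.59% of all genes) and 1 fell (5%), with 1 called both ways. NAGS, SLC25A15, FAH and ALDH4A1 made up the other rises (1.29, 1.21, 1.06 and 1.04).

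Several epithelial genes rose, and mesenchymal genes moved in both directions. Of 22 genes of the list tested, 7 rose (31.8%, against 8.59% of all genes) and 3 fell (13.6%, near the 14.0% of all genes). Of these, 3 and 1 were called both ways. KRT19, a keratin of bile duct and progenitor cells, read 81.7, 55.3 and 74.1 FPKM in resistant and 8.76, 6.71 and 6.07 FPKM in parental cells (log2 fold change 3.12, SE 0.17, adjusted p = 7.81e-06). EPCAM, an epithelial adhesion molecule, read 23.5, 27.2 and 25.4 FPKM against 6.37, 5.84 and 6.19, and CDH1, the gene of E-cadherin, 22.6, 26 and 23.8 FPKM against 8.17, 8.04 and 7.15. These 3 genes were called higher both ways, and their groups lay far apart. KRT8 and KRT18, the keratin pair of hepatocytes, rose with log2 fold changes of 1.40 and 1.31, which were 0.85 and 0.77 with the GC trend removed. KRT8 and KRT18 share 16.3% of the exon bases of KRT18 and have many pseudogenes, so their reads may be shared.

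The mesenchymal members did not move as one. ZEB1, a transcription factor that represses E-cadherin, read 2.09, 1.74 and 1.48 FPKM against 6.5, 7.74 and 10.3 and fell both ways. TGFB2, a growth factor of the transition, and LOX, an enzyme that crosslinks collagen, fell from 4.45 ± 0.18 to 0.929 ± 0.0381 and from 26.3 ± 1.06 to 11 ± 1.74 FPKM, and not with the GC trend removed. SNAI1, another repressor of E-cadherin, rose from 6.57 ± 1.19 to 20.2 ± 2.88 FPKM, likewise only without removal of the trend. S100A4, a further mesenchymal member, also rose only without removal of the trend, and its values are given with the S100 genes below. CDH2 and FN1, the genes of N-cadherin and fibronectin, were at -0.49 and 0.23 and not called. VIM, the gene of vimentin, lay under the filter with 0.0204, 0.010 and 0.0306 FPKM against 0.605, 0.552 and 0.456. These rested on 2, 1 and 3 reads in the resistant and 56, 48 and 38 reads in the parental libraries, and VIM was not tested.

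All 5 tested S100 genes, which encode small calcium-binding proteins, rose, against 8.59% of all genes. S100P, S100A9 and S100A11 did so both ways. S100A11 rose from 27.4 ± 5.14 to 118 ± 12.4 FPKM. S100A6 rose from 31 ± 5.02 to 89.6 ± 15.5 and S100A4 from 6.04 ± 1.59 to 15.3 ± 2.53 FPKM, with 0.95 and 0.84 on the log2 scale once the GC trend was removed. The cholangiocyte markers fixed for the check of cell type were split. KRT19 and EPCAM rose, SOX9 had a log2 fold change of -0.57 and was not called, and KRT7, CFTR and MUC1 had means of at most 0.281 FPKM in either group.

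**Figure D4:**
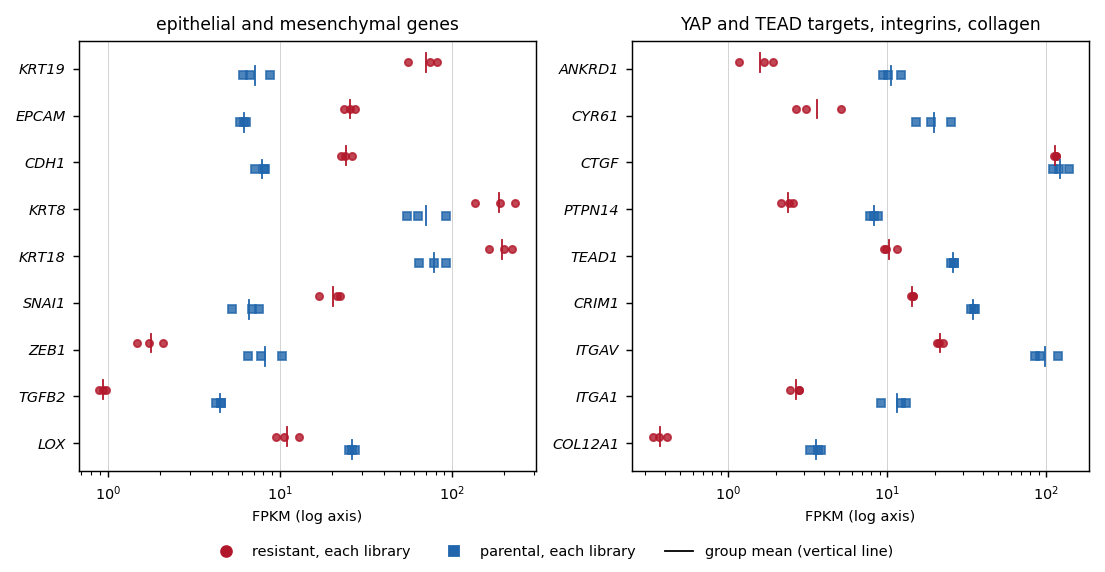
FPKM on a log axis in each library for epithelial and mesenchymal genes (left) and for YAP and TEAD targets, integrins and a collagen (right); red circles are resistant libraries, blue squares parental libraries, and vertical lines group means. KRT19, EPCAM and CDH1 lie to the right in resistant cells and ZEB1 to the left, and on the right panel every gene apart from CTGF is lower in resistant cells without overlap.

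Part of the YAP and TEAD targets fell and none rose. Of 13 tested, 5 fell (38.5%, against 14.0% of all genes) and 0 rose, and 4 were called lower both ways. The median log2 fold change was -0.83, and -0.91 with the GC trend removed. In 10 of the 13 genes all resistant libraries lay below all parental ones, against 39.2% of all genes. ANKRD1, a nuclear ankyrin repeat protein that is a standard readout of YAP, read 1.68, 1.18 and 1.91 FPKM in resistant and 10.2, 9.42 and 12.2 FPKM in parental cells (log2 fold change -2.17, SE 0.15, adjusted p = 1.71e-05). CYR61, a secreted matricellular protein, read 3.11, 2.7 and 5.12 FPKM against 25.3, 18.9 and 15.2. PTPN14, a phosphatase that binds YAP, and CRIM1, a membrane regulator of BMP signals, fell from 8.3 ± 0.517 to 2.38 ± 0.201 and from 35 ± 0.961 to 14.4 ± 0.312 FPKM. TEAD1, one of the TEAD factors, fell from 26 ± 0.601 to 10.4 ± 1.06 FPKM, with a log2 fold change of -1.25, and of -0.78 with the GC trend removed.

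CTGF, the other classic secreted target, did not share this fall. It read 112, 116 and 116 FPKM in resistant and 139, 120.2 and 111 FPKM in parental cells, with a log2 fold change of -0.10 and a 95% interval of -0.37 to 0.17. AMOTL2 and LATS2, feedback inhibitors of YAP, had log2 fold changes of -0.83 and -0.82, and were called lower only with the GC trend removed (-1.38 and -1.20). DLC1 and NT5E were at -0.83 and -0.88, and these, AMOTL1, AJUBA and F3 were not called.

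The upstream sequences of ANKRD1 and PTPN14, which fell, and of CTGF, which was not called, are shown because all hold the core letters of the TEAD element, GGAATG, read on either strand. Each is the 250 bases before the RefSeq start of the gene, from GRCh38.p14, 5′ to 3′ on the strand of the gene, in lower case with GGAATG or its reverse complement in capitals. ANKRD1 lies at chr10:90921088-90921337 on the minus strand, PTPN14 at chr1:214551603-214551852 on the minus strand and CTGF at chr6:131951373-131951622 on the minus strand.
ANKRD1: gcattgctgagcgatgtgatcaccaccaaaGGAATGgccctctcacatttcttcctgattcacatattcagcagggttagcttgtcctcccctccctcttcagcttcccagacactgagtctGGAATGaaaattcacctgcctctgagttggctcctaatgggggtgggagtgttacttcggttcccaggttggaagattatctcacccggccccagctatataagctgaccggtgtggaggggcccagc
PTPN14: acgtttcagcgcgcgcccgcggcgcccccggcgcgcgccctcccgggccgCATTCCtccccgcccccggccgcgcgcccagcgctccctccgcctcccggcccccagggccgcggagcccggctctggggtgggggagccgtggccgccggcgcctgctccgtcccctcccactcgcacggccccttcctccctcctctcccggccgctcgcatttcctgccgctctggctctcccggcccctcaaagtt
CTGF: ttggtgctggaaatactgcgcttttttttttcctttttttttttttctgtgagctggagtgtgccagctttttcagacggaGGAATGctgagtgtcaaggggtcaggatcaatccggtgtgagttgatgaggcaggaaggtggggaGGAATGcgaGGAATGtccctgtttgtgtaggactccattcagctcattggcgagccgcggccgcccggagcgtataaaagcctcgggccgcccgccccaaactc
ANKRD1 holds 2 such matches, PTPN14 1 and CTGF 3. Of the 10 list genes that have a window, among them AXL, which lay under the filter, 6 hold a match, against 13.2% of the 8899 tested genes with a window. A match is a description of the letters and not of binding. Among the 17 NRF2 targets with a window, AKR1C3 under the filter included, 5 hold the core of the antioxidant response element, TGACNNNGC, on either strand, against 15.9% of tested genes, and of the 7 of them that rose only PGD does. Only 250 bases were read, so a window without a match does not show that a gene lacks the element further away. The 4 metallothionein windows hold the core of the metal response element, TGCACNC or TGCGCNC, against 40.0% of tested genes with a window. By window rather than by gene the share is 24.8% of all 35116. The 4 windows belong to MT1B, which rose, to MT1X, which was not called, and to MT1H and MT2A, which lay under the filter. Of the 16 ERK response genes with a window, 1 holds the AP-1 element, TGANTCA, against 6.00% of tested genes; that gene, SPRED3, lay under the filter.

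Some genes of matrix contact fell and others rose. Of 30 collagens, laminins and integrins tested, 6 fell (20%, against 14.0% of all genes) and 4 rose (13.3%, against 8.59%). Of these, 3 falls and 0 rises were called both ways. ITGAV, the alpha subunit of the vitronectin receptor, read 21.4, 22.6 and 20.5 FPKM in resistant and 85.5, 91.7 and 119 FPKM in parental cells. COL12A1, a collagen that associates with fibrils, fell from 3.61 ± 0.307 to 0.374 ± 0.0383 and COL10A1, a short-chain collagen, from 3.47 ± 1.13 to 0.562 ± 0.154 FPKM, and these 3 fell both ways. ITGA1, ITGB1 and ITGA2, which form collagen receptors, fell from 11.5 ± 2.09 to 2.68 ± 0.198, from 55.6 ± 11.5 to 25.7 ± 2.35 and from 14.4 ± 1.02 to 6.47 ± 0.386 FPKM, not with the GC trend removed. LAMB3, a laminin chain of epithelial basement membrane, and ITGA3, its receptor subunit, rose from 0.109 ± 0.0373 to 2.06 ± 0.273 and from 0.281 ± 0.0573 to 2.32 ± 0.292 FPKM, again not with the GC trend removed. Of 20 adherens junction genes, 2 rose (10%, near the 8.59% of all genes) and 4 fell (20%, against 14.0%). CDH1 and NECTIN2 were the rises, and LMO7, NECTIN3, PTPRM and SSX2IP the falls, the first 3 of these falls both ways. NECTIN3, a junction adhesion molecule, fell from 16.2 ± 2.05 to 4.2 ± 0.134 FPKM.

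Of the kinases that sorafenib inhibits, only BRAF was called among those tested. Of 17 such genes 7 passed the filter, and 1 was called lower (14.3%, near the 14.0% of all genes). BRAF read 3.57, 3.67 and 3.33 FPKM in resistant and 7.54, 8.73 and 9.33 FPKM in parental cells (log2 fold change -1.07, SE 0.11, adjusted p = 9.55e-05), without overlap, and -0.49 with the GC trend removed. ARAF, another RAF kinase, had a log2 fold change of 0.80, EPHB4 of 0.73 and the p38 kinase MAPK14 of -0.42. FGFR1 and PDGFRB were at -0.03 and -0.03, with overlapping groups. KDR, FLT1, FLT4, PDGFRA, KIT, FLT3, RET, DDR1, DDR2 and CSF1R did not pass the filter, so that no difference was tested in the vascular growth factor receptors. A value under the filter does not show that a gene is not expressed: COX5B, a subunit of cytochrome oxidase that respiring cells need, also lay under it, at means of 0.218 FPKM in resistant and 0.0516 FPKM in parental cells. DDR1 lay near the filter, with means of 1.12 and 0.311 FPKM.

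Among other receptors and ligands, FGF19 rose most. Of 19 genes tested, 2 rose (10.5%) and 3 fell (15.8%), shares near the 8.59% and 14.0% of all genes. Called both ways was 1 of each, FGF19 and PDGFC. PDGFC, a platelet-derived growth factor, read 1.43, 2.22 and 1.95 FPKM against 11.1, 11.3 and 13.4. TYRO3, a receptor kinase of the AXL family, rose from 7.88 ± 1.4 to 18.5 ± 2.81 FPKM, and ANGPT2, an angiopoietin, and ROR1, a WNT5A receptor, fell from 2.17 ± 0.158 to 0.433 ± 0.0985 and from 6.53 ± 0.402 to 2.62 ± 0.181 FPKM. EGFR, MET, ERBB2 and ERBB3 had log2 fold changes between -0.41 and 0.41 and were not called. FGFR4, the receptor of FGF19, was at -0.04, and its coreceptor KLB at -0.86.

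Response genes of ERK rose in part. Of 21 tested, 6 rose (28.6%, against 8.59% of all genes) and 1 fell (4.76%), with 3 and 1 called both ways. DUSP5, a phosphatase that inactivates nuclear ERK, read 274, 222 and 241 FPKM in resistant and 71, 64.3 and 55.6 FPKM in parental cells, and DUSP6, its cytoplasmic relative, 34.4, 39 and 37.3 FPKM against 15.5, 14.4 and 14.9. FOSL1, the AP-1 subunit FRA1, rose from 0.915 ± 0.141 to 7.31 ± 1.16 FPKM. FOS, ETV4 and DUSP4 rose with log2 fold changes of 1.36, 1.19 and 1.12 and were not called with the GC trend removed. PHLDA1, another ERK-induced gene, fell from 11.9 ± 1.15 to 2.37 ± 0.256 FPKM. The Sprouty genes SPRY2, SPRY1 and SPRY4 were at -0.81, -0.37 and 0.71 and MYC at 0.88, and these, EGR1 and JUN were not called.

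Hepatocyte markers were expressed in both groups. Of the 12 hepatocyte markers, 0 rose and AFP alone fell. ALB, the gene of albumin, read 571, 794 and 721 FPKM in resistant and 875, 867 and 1114 FPKM in parental cells (log2 fold change -0.46, adjusted p = 0.0458), and HNF4A, the master hepatocyte factor, 85.5, 72.7 and 82.3 FPKM against 54.1, 46 and 40.5 (0.77), neither called. The other markers, CPS1, APOB, TTR, FGB, TF, SERPINA1, TM4SF4 and APOA1 among them, had log2 fold changes from -0.93 to 0.97. The 8 immune, 6 endothelial and 8 fibroblast and stellate markers had 1 tested member each, CD14 (0.79), PECAM1 (0.31) and PDGFRB, and the defining genes PTPRC, CDH5 and COL3A1 had means of at most 1.06 FPKM. In RNA from whole cultures, a change in the cells' share and a change in RNA per cell cannot be told apart.

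Of 26 plasma protein genes tested, 6 rose (23.1%, against 8.59% of all genes) and 0 fell, with 2 called both ways, SERPINC1 and APOA2. SERPINC1, the gene of antithrombin, read 152, 143 and 154 FPKM against 40.0, 40.0 and 32.4. RBP4, AHSG, AMBP and F2, a retinol carrier, fetuin A, the precursor of alpha-1-microglobulin and prothrombin, rose with log2 fold changes of 1.24, 1.11, 1.05 and 1.01. Of 22 hepatocyte transcription factors, FOXA3 and NR1I2, the gene of the xenobiotic receptor PXR, rose (1.32 and 1.02) and GATA6 fell from 14.2 ± 3.15 to 5.25 ± 0.31 FPKM, only GATA6 both ways. In the oncofetal list DLK1, a membrane ligand of fetal liver, rose (1.03) and AFP fell, neither with the GC trend removed. HMGA2, LIN28B, PEG10, SALL4, IGF2BP3, IGF2BP2, SPINK1, IGF2, GPC3 and IGF2BP1 lay from -0.99 to 0.81 and were not called, and HMGA2 was called lower with the GC trend removed (-1.05).

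Of 12 bile acid genes tested, 2 rose (16.7%, against 8.59% of all genes) and the others were not called. SLC51B, the beta subunit of the basolateral bile acid exporter, read 53.4, 42 and 54.9 FPKM in resistant and 12.5, 8.08 and 8.69 FPKM in parental cells and, like FGF19, was called both ways. Both are textbook targets of the bile acid receptor FXR, encoded by NR1H4, which was at -0.12, and another target, NR0B2, was at 0.14. KLB, SLC10A1, ABCB4, HSD3B7, AKR1D1, FGFR4, CYP27A1 and SLC51A had log2 fold changes from -0.86 to 0.58, and HSD3B7 was called lower with the GC trend removed (-1.24).

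Acute phase, complement and clotting genes moved in both directions, with shares to be read against 8.59% higher and 14.0% lower of all genes. Of 17 complement genes, 3 rose and 3 fell (17.6% each), with 2 of each called both ways. Of 9 acute phase genes, 1 rose (11.1%) and 2 fell (22.2%). Of 25 clotting genes, 3 rose (12%) and 2 fell (8%). HAMP, the iron hormone hepcidin, rose from 0.987 ± 0.374 to 7.54 ± 1.26 FPKM, and CP, the copper carrier ceruloplasmin that shares 19.4% of its exon bases with HPS3, fell from 8.14 ± 2.29 to 0.95 ± 0.0612 FPKM. C3, the central complement protein, read 18, 14.8 and 18 FPKM against 70.4, 56.3 and 52.9. C4BPB, a complement inhibitor, fell from 5.96 ± 1.1 to 0.781 ± 0.0424 FPKM, while SERPING1, the C1 inhibitor, and C1S rose from 38.4 ± 5.53 to 112 ± 14.8 and from 1.85 ± 0.135 to 5.63 ± 0.36 FPKM. All of these were called both ways. C2 rose (1.37) and another complement gene fell, and neither of these calls was kept with the GC trend removed. FGG, HPX, FGB, ORM2, FGA and ORM1 of the acute phase list lay from -0.16 to 0.52. F12, the clotting factor XII, fell from 5.64 ± 1.17 to 0.397 ± 0.0838 FPKM and was called both ways, and F11 fell (-1.19) and SERPINF2 rose (1.04) in 1 analysis only.

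Lipid metabolism changed at few genes. Of 25 cholesterol synthesis genes, 1 rose (4%, against 8.59% of all genes) and 2 fell (8%, against 14.0%), none of them with the GC trend removed. MSMO1 and SC5D were the falls (-1.25 and -1.02), and the highest log2 fold change of the list was 1.43. Of 26 genes of fatty acid synthesis and lipid droplets, CIDEC and AGPAT2 rose (1.34 and 1.33), also in 1 analysis only. Of 24 fatty acid oxidation and ketone synthesis genes, 2 rose (8.33%, near the 8.59%) and 1 fell (4.17%), with 1 of each called both ways. ACAA1, a peroxisomal thiolase, was among the rises (1.26). ETFDH, an electron carrier of fatty acid oxidation, fell from 5.14 ± 0.428 to 1.3 ± 0.213 FPKM and was called both ways.

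Transporters of drugs were called at shares near those of all genes, 8.59% higher and 14.0% lower. Of 25 ABC transporters, 3 rose (12%) and 3 fell (12%), with 1 of each called both ways. ABCG2, the breast cancer resistance protein, read 9.42, 11.6 and 11 FPKM in resistant and 2.82, 2.68 and 2.98 FPKM in parental cells (log2 fold change 1.61, SE 0.11, adjusted p = 1.98e-05), with 2.14 after removal of the GC trend. ABCA1, the cholesterol exporter, fell from 49.8 ± 3.39 to 21.5 ± 2.39 FPKM. ABCC1 and ABCF2 rose (1.32 and 1.12) and ABCA5 and ABCD3 fell (-1.31 and -1.08), not with the GC trend removed. Of 15 uptake carriers, 2 rose and 2 fell (13.3% each). SLCO2A1, a prostaglandin transporter, rose from 1.12 ± 0.149 to 6.91 ± 0.682 FPKM and SLC22A3, an organic cation transporter, fell from 11.5 ± 1.28 to 4.4 ± 0.249 FPKM, both of them both ways. SLC22A18 rose (1.04) and SLCO4C1 fell (-1.62).

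The cytochrome P450 list had 13 tested genes, POR and CYB5A, partners of these enzymes, included. Of the 13, 4 rose (30.8%, against 8.59% of all genes) and 1 fell (7.69%, against 14.0%). CYP2S1 and CYP2J2, an arachidonic acid epoxygenase, rose both ways (CYP2J2 from 4.01 ± 0.23 to 10.8 ± 0.494 FPKM). CYP1A1, the aryl hydrocarbon receptor target, and POR, the reductase that serves all P450 enzymes, rose (1.27 and 1.11) and CYP4V2 fell (-1.04). Of 24 conjugating enzymes, 6 rose (25%, against 8.59% of all genes), GSTP1 among them, and 3 fell (12.5%, near the 14.0% of all genes). UGT2B4, a bile acid glucuronosyltransferase, read 42.7, 59.8 and 48.2 FPKM against 14.2, 14.8 and 15.7, and SULT1A2 and GSTA1 rose both ways too (2.06 and 1.15), with near-identical relatives in each of these families. GSTM3 fell both ways, from 13.5 ± 1.25 to 4.81 ± 0.745 FPKM, and GSTO1 and SULT1A1 rose and GSTA4 and SULT1C3 fell without the trend's removal only (1.18, 1.08, -1.08 and -1.25).

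Metallothioneins, small proteins that bind zinc and copper, differed among themselves. MT1G read 92.5, 59.4 and 95.2 FPKM in resistant and 10.5, 9.97 and 7.67 FPKM in parental cells (log2 fold change 2.99, SE 0.20, adjusted p = 1.48e-05). MT1A rose from 17.9 ± 2.68 to 39.1 ± 5.52 FPKM, and not with the GC trend removed. MT1B read 2.36, 1.23 and 1.8 FPKM against 0.00, 0.156 and 0.00, which rested on 17, 9 and 13 reads in the resistant and 0, 1 and 0 reads in the parental libraries, and it rose both ways. MT1E, MT1F, MT1X and MT1M had log2 fold changes of -0.28, -0.20, -0.33 and 0.66 and were not called, and MT1E, MT1F and MT1X had overlapping groups. The genes are near-identical copies, so reads may be split among them. Of 30 zinc, copper and iron transport genes, 4 rose, HAMP among them, and 4 fell, CP among them. Each is 13.3%, against 8.59% higher and 14.0% lower of all genes. SLC39A5, a zinc importer, rose both ways (5.07 ± 0.388 to 17.6 ± 2.14 FPKM), TFR2 and SLC39A1 rose (1.23 and 1.02), and SLC30A9, ATP7A and SLC30A1, which is the zinc exporter, fell (-1.55, -1.04 and -1.02).

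Many ribosomal protein genes rose, by less than 2 on the log2 scale in each case. Of 85 cytosolic ribosomal protein genes tested, 29 rose (34.1%, against 8.59% of all genes) and 0 fell, with 16 called both ways. Their median log2 fold change was 0.86, and 0.76 with the GC trend removed. In 79 of the 85 all resistant libraries lay above all parental ones, against 35.2% of all genes. RPSA, a protein of the small subunit, read 874, 659.8 and 761 FPKM against 253, 205 and 184. These genes have many processed pseudogenes, so counts may be shared. Mitochondrial ribosomal proteins rose in 17 of 69 cases (24.6%) and fell in 2 (2.90%), with 3 and 0 of them called both ways. MRPL15 changed most (11 ± 1.48 to 39.5 ± 1.9 FPKM). MRPL42 and MRPL32 were the falls (-1.39 and -1.13).

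Nuclear genes of oxidative phosphorylation rose in 9 of 69 cases, to be read against 8.59% of all genes, and fell in 0, against 14.0%. Only 3 of the 69 were called higher both ways, a share near the 3.70% of all genes. NDUFB9 of complex I and COX6A1 of complex IV rose from 23.3 ± 3.6 to 58.9 ± 3.78 and from 33.3 ± 2.18 to 79.3 ± 8.2 FPKM. Of the mitochondrially encoded genes, MT-CO1 and MT-ND3 were tested, at 0.49 and 0.22, and not called. Proteasome subunits rose in 10 of 39 cases (25.6%, against 8.59% of all genes) and fell in 1. Only 1 rise was called both ways, PSMD13 (15.7 ± 2.57 to 39 ± 3.85 FPKM). PSMD8, PSMB6 and PSMD2 were the next largest (1.46, 1.28 and 1.19), and PSMA2 was the fall (-1.12).

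Chaperone and stress genes moved singly. HSP90AA1 read 68.8, 73.7 and 68.9 FPKM in resistant and 175, 177 and 279.6 FPKM in parental cells, and it was the fall of 19 heat shock genes, whose 3 rises, HSF1, STIP1 and HSPA1B (1.24, 1.03 and 1.00), were not called with the GC trend removed. HSPA1B has a near-identical copy, HSPA1A. Of 21 endoplasmic reticulum stress genes, XBP1, the transcription factor of secretory cells, read 541, 525 and 494 FPKM against 263, 240.0 and 214, and CREB3L1, a membrane-bound factor of the same kind, rose from 1.57 ± 0.158 to 11 ± 0.936 FPKM, both of them both ways. SDF2L1 rose (1.12) and SEL1L fell (-1.45). Of 18 genes of the integrated stress response, STC2, a secreted glycoprotein, rose both ways (5.13 ± 0.876 to 16.1 ± 1.19 FPKM), TRIB3 rose (1.00) and SLC7A11 fell. Of 35 aminoacyl-tRNA synthetases, MARS2 rose both ways (1.24), VARS rose (1.12) and EPRS fell (-1.18).

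Replication-dependent histone genes, whose RNA is made in S phase and mostly lacks a poly(A) tail, rose widely. Of 52 tested, 30 rose (57.7%, against 8.59% of all genes) and 0 fell, with a median log2 fold change of 1.15, and 20 were called higher both ways. HIST1H1A, a linker histone, read 493, 342 and 414 FPKM in resistant and 121, 82.9 and 96 FPKM in parental cells, and HIST1H4B, 477, 338 and 386 FPKM against 131, 71.2 and 84.2. HIST1H4L changed most (3.16) and HIST1H2AH and HIST1H2BB followed (2.15 and 2.10). HIST1H2AH rested on uneven resistant libraries, at 56.1, 48.9 and 145 FPKM. Whether RNA was selected by its poly(A) tail is not given in the sources used here. Of the replication-independent variants only H1FX rose (2.64 ± 0.952 to 8.16 ± 2.13 FPKM), and H3F3B, H3F3A, H2AFY, H2AFX, H2AFZ and H2AFV lay between -0.16 and 0.91.

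The cell cycle lists did not move in 1 direction. Of 44 DNA replication genes, 5 rose (11.4%, near the 8.59% of all genes) and 1 fell (2.27%). MCM5, CHAF1B, POLD2, MCM2 and MCM7 rose and ORC3 fell (-1.54), and CHAF1B, a subunit of the chromatin assembly factor, alone was called both ways. Of 39 mitosis genes, 4 rose (10.3%, near the 8.59% of all genes), PLK1, AURKB, UBE2C and CDCA8. In the same list 10 fell (25.6%, against 14.0% of all genes), led by ASPM, CENPE and CENPF. With the GC trend removed none of the mitosis genes was called. PLK1, the mitotic kinase, read 40.3, 32 and 36.3 FPKM against 14.3, 11 and 11, and ASPM, a spindle pole protein, 14.4, 9.46 and 8.45 FPKM against 24.9, 35.1 and 57.3. DNA repair genes fell in 7 of 39 cases (17.9%, near the 14.0% of all genes, with a median log2 fold change of -0.50), WRN, ATM, FANCL, LIG4, FANCM, MRE11 and BRCA1, and with the GC trend removed the median was -0.01 and none was called. The median GC content of the tested repair genes was 42.7%. Of 327 ZNF genes, 35 fell (10.7%, against 14.0% of all genes) and 13 rose (3.98%, against 8.59%), 5 and 6 of them both ways, with ZNF117 and ZNF114 (2.28) at the ends.

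At the entry to the cell cycle, CDK6, a kinase that inactivates RB, fell and E2F2, an S phase factor, rose. CDK6 read 5.89, 6.09 and 5.26 FPKM in resistant and 19.1, 22.9 and 22.6 FPKM in parental cells, and E2F2 15.3, 11.7 and 13.3 FPKM against 4.49, 3.51 and 3.66, and both were called both ways. CDKN2A and CCNE1 rose (1.16 and 1.01) in 1 analysis only. Of 17 p53 targets, AEN, a nuclease of apoptosis, rose both ways (6.61 ± 1.17 to 21.2 ± 1.87 FPKM), and of 11 BCL2 family genes BID, which links death receptors to mitochondria, rose (1.30), with a value just under the threshold once the GC trend was removed (0.99). BNIP3L, MCL1, BCL2L11, BNIP3, PMAIP1, BOK, BCL2L13, BAX, BMF and BAK1 lay from -0.55 to 0.91 and were not called. Of 61 splicing and export factors, 6 rose (9.84%, near the 8.59% of all genes) and 5 fell (8.20%, against 14.0%). Called both ways was 1 of each, SF3B3 (31 ± 4.08 to 87.7 ± 6.79 FPKM) and HNRNPH1 (47.2 ± 4.86 to 17.5 ± 2.99 FPKM).

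Interferon and chemokine genes included some of the larger changes. OAS3 and OAS1, which sense double-stranded RNA, rose from 3.18 ± 0.484 to 27.5 ± 1.23 and from 0.791 ± 0.199 to 9.41 ± 0.37 FPKM, and MX1, an antiviral GTPase, from 0.318 ± 0.087 to 2.61 ± 0.0656 FPKM, all of them both ways. In OAS3 the resistant libraries read 28.9, 27 and 26.7 FPKM and the parental ones 3.48, 3.43 and 2.62. DDX58, the RNA sensor RIG-I, fell (-1.10), and the other 10 tested members, ISG15 and B2M among them, were not called. Of 13 chemokines and interleukins, CXCL16 and CCL15 rose both ways, CXCL16 from 9.28 ± 1.77 to 39.2 ± 1.79 and CCL15 from 0.385 ± 0.149 to 4.97 ± 0.819 FPKM. CXCL8 read 2.57, 2.99 and 3.52 FPKM in resistant and 23.1, 19.8 and 19.7 FPKM in parental cells, and CXCL10, an interferon-induced chemokine, fell from 2.59 ± 0.165 to 0.252 ± 0.126 FPKM. TNFAIP3, the NF-kB inhibitor A20, fell both ways (5.0 ± 0.332 to 1.9 ± 0.328 FPKM), and NFKBIZ, REL, NFKBIE, RELB, BCL3, NFKB1, NFKBIB, NFKB2, ICAM1, NFKBIA and RELA lay from -0.97 to 0.78 without a call, and NFKBIZ was called lower with the GC trend removed (-1.06).

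The remaining lists differed in their share of calls. Of 11 liver cancer stem cell markers, 2 rose (18.2%, against 8.59% of all genes) and 3 fell (27.3%, against 14.0%). KRT19 and EPCAM were the rises, and PROM1, the surface protein CD133, fell both ways (3.7, 4.73 and 4.44 FPKM against 15.2, 15.3 and 16). CD47, the signal against phagocytosis, and BMI1, a Polycomb protein, fell (-1.51 and -1.38) without the trend's removal only, and ALDH1A1, SOX9, CD24, ANPEP, SOX4 and ICAM1 lay from -0.61 to 0.52. Of 10 Wnt targets, 1 rose (10%, near the 8.59% of all genes) and 0 fell. The rise was ZNRF3, a feedback ligase of Wnt receptors (20.6 ± 2.09 to 43.7 ± 0.989 FPKM), not called with the GC trend removed (0.51). LGR5, RNF43, DKK1, CTNNB1, TBX3, RHBG, GLUL, CCND1 and TCF7 lay from -0.61 to 0.34. Of 19 hypoxia genes, 4 rose (21.1%, against 8.59% of all genes) and 3 fell (15.8%, near the 14.0%). SLC2A1 and CA12, a carbonic anhydrase, rose both ways (CA12 from 0.294 ± 0.0486 to 2.17 ± 0.181 FPKM). NDRG1 and PFKFB3 also rose, and HIF1A, EGLN1 and LOX fell. Of 24 FoxO and PI3K genes 4 fell (16.7%, near the 14.0% of all genes) and 0 rose. RICTOR, PIK3R1 and PIK3CA were among the falls (-1.55, -1.23 and -1.23), and none of the 4 was called with the GC trend removed. Of 42 lysosome and autophagy genes, 4 rose and 4 fell (9.52% each, against 8.59% and 14.0% of all genes). SQSTM1, the autophagy receptor p62 and an NRF2 target, rose both ways (24.8 ± 3.85 to 76.9 ± 12.4 FPKM). CTSF, CTSL and CTSD rose (1.42, 1.20 and 1.09), and CTSK, CTSE, ATP6V0C and CTSO fell, the first 3 of these falls both ways.

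Genes that the study singles out in its analyses of patient tumours were looked up last, and 5 of 7 passed the filter. CHAF1B read 12.4, 12.2 and 12.7 FPKM in resistant and 4.93, 4.86 and 4.26 FPKM in parental cells and was called higher both ways. ALYREF, an mRNA export adaptor, read 26.5, 21.8 and 27.2 FPKM against 11.6, 8.86 and 10.6, and with the GC trend removed its log2 fold change was 0.65. NR3C2, the mineralocorticoid receptor, read 0.503, 0.651 and 0.541 FPKM against 2.9, 3.08 and 3.08 and was called lower both ways. ADH4, an alcohol dehydrogenase of the liver, read 0.193, 0.55 and 0.343 FPKM against 2.07, 2.93 and 2.62 and was called lower (-1.38), with -0.85 after removal of the trend. ATAD3A, a mitochondrial ATPase, had a log2 fold change of 0.85 and was not called. SORBS2 and PPARGC1A lay under the filter, with means of 0.0907 and 0.0948 FPKM in resistant and 0.734 and 0.829 FPKM in parental cells. The study drew these genes from a signature made in part on these samples, so the list is no independent evidence of its direction.

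**Figure D5:**
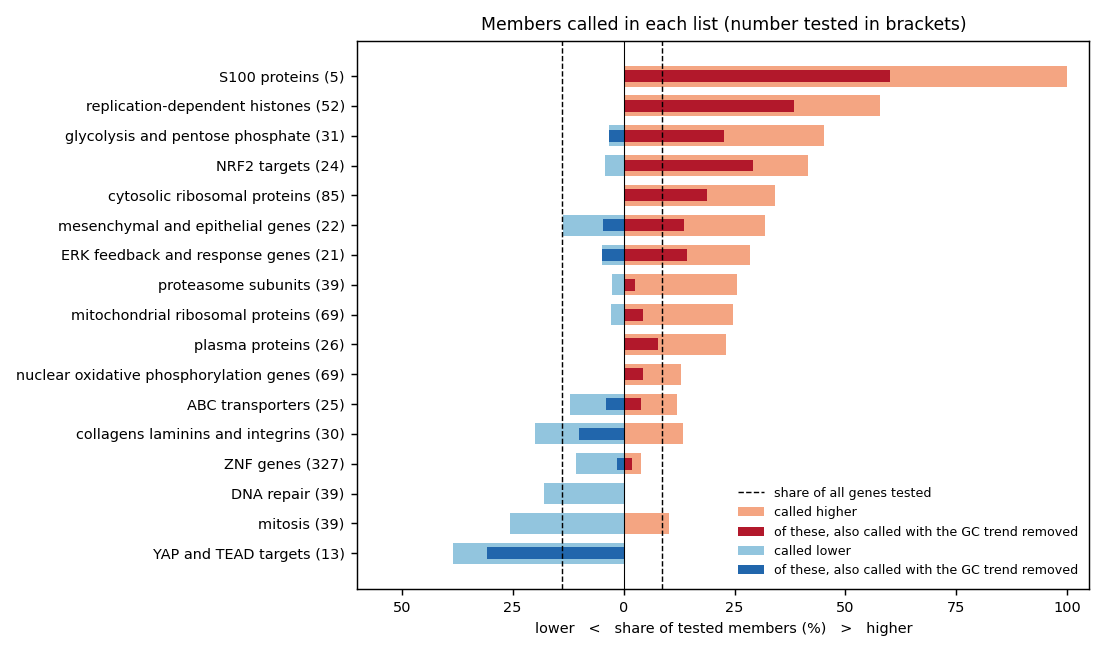
Share of the tested members of 17 gene lists that was called higher (red, to the right) or lower (blue, to the left) in resistant Huh7 cells, in percent. Pale bars are calls on FPKM as deposited, and dark bars those of them also called with the GC trend removed. Dashed lines are the shares of all genes called on FPKM as deposited, and for dark bars the shares of all genes are lower (3.70% and 4.41%). The S100, histone, sugar, NRF2, cytosolic ribosomal, ERK, and mesenchymal and epithelial lists keep dark bars beyond the dashed line on the right. The YAP and TEAD list does so on the left, and the dark bars vanish for DNA repair and mitosis.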

How the data were processed

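The 6 Huh7 libraries, 3 resistant and 3 parental, were grouped by their labels. The labels name 2 μg of total RNA, an RNeasy kit and a NEBNext library kit, while the study's methods name TRIzol and a service provider. The submitters' processing notes name GRCh38, and the aligner and the counter are not given in the sources used here. The deposited values carry no stated unit; they are taken as FPKM made by the authors, because value times exon length fell on whole multiples of 1 step per library in single-exon genes (96.3% of values within 0.05 of a whole number of reads). Genes with NONCODE identifiers were not used. GENCODE release 29, which holds 27234 of the 27249 Ensembl identifiers, gave the length, position and GC content of the exons.

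Tables were read with Python 3.11.15 and pandas 2.3.3, and log2(FPKM + 1) was fitted with limma 3.58.1 in R 4.3.3, with a variance trend, and tested on simulated data. Thresholds follow the study's methods. Gene lists, members and the rule for naming genes were chosen with earlier results of these data known. The rule names the 12 genes each way with the largest fold change, the 6 each way with the largest FPKM difference, up to 4 called members of each list and direction, all members of lists of up to 12 tested genes, sorafenib kinases and genes of the study. Not every gene it selects is described, and some are counted but not reported here by name. To remove the GC trend, each library's deviation from the mean of the 6 was smoothed against GC content (lowess, span 0.3) and the curve subtracted. Promoter windows came from RefSeq (GRCh38.p14), without chromosome 8.

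Alternatives were a pseudocount of 0.1, no filter, 1 FPKM in all 6 libraries, scaling by median ratio or upper quartile, no variance trend, limma-voom on the reads recovered from FPKM and exon length, a replicate block, removal of the GC trend (with and without the block) or the length trend, and leaving out each library.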

Additional observations from a re-analysis of the deposited data

How the results depend on the processing

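The counts of genes called, 1079 higher and 1759 lower, depended most on GC content. With the GC trend removed they were 706 and 731, and with the replicate block added to that 707 and 739. A pseudocount of 0.1 gave 1581 and 2606, and limma-voom on reads 1427 and 2849. A filter of 1 FPKM in all 6 libraries gave 832 and 1118 of 10079 genes tested; fewer genes were tested there. The other settings, no filter, upper-quartile scaling, median-ratio scaling, no variance trend and removal of the length trend, stayed within 1.5 times of both counts, at 1073 to 1172 higher and 1302 to 1759 lower. Leaving out each library in turn gave 854 to 1321 higher and 1190 to 1942 lower; 689 of the higher and 1059 of the lower calls were made in all 6 of these fits. Some genes near 1 FPKM left the test when a resistant or a parental library was left out, since only 2 libraries of the higher group then remained. No gene called in the test as reported was called in the opposite direction under any alternative. The share of higher among all calls was 38.0% as reported and 49.1% with the GC trend removed, and 47.2% with the length trend removed. The deviations of same-numbered libraries from their group means had correlations of 0.08, 0.06 and -0.23. With 3 libraries a group, these values cannot settle whether the replicate numbers pair the libraries. The replicate block alone gave 1081 higher and 1760 lower calls.

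Some genes named above that were not called changed sign. With the GC trend removed, with or without the block, log2 fold changes were 0.14 for ALB, 0.69 for FGG, 0.0082 for GCLC, 0.58 for GCLM, 0.28 for MDH1, 0.50 for NR1H4, -0.057 for HMOX1, -0.029 for ICAM1, -0.41 for NR0B2 and -0.19 for TCF7. With the length trend removed FGFR1 was at 0.41 and PDGFRB at 0.11. Leaving out 1 library at a time gave -0.11 to 0.051 for FGFR1, -0.21 to 0.13 for FGFR4, -0.10 to 0.081 for PDGFRB and -0.12 to 0.40 for MT-ND3, whose value was negative only without parental replicate 1. Genes near 1 FPKM rest on few reads, and whether the difference in GC trend is technical or biological was not tested.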

Other observations

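Several genes of intestinal and mucus-secreting epithelium, chosen after their values were seen, rose together in resistant cells. ISX, an intestinal homeobox factor, read 52.6, 45.7 and 51.3 FPKM in resistant and 9.5, 9.4 and 8.21 FPKM in parental cells, and KLF5, a factor of intestinal crypts, 85.3, 98.3 and 91 FPKM against 23.2, 22.6 and 23.4. The brush border genes MYO1A, a myosin of microvilli, and ALPI, the intestinal alkaline phosphatase, rose from 1.65 ± 0.16 to 12.2 ± 0.266 and from 0.603 ± 0.236 to 5.37 ± 1.15 FPKM, and VIL1, the gene of villin, which shares 44% of its exon bases with USP37, from 13.7 ± 1.82 to 55.2 ± 2.0 FPKM. TFF2, a trefoil peptide of mucus, and MUC3A, a membrane mucin with near-identical copies, rose from 6.42 ± 3.1 to 25.4 ± 2.56 and from 2.2 ± 0.0718 to 13.6 ± 2.04 FPKM, and CEACAM1, an adhesion molecule, from 3.74 ± 0.281 to 16.2 ± 0.608 FPKM. In each of these genes the groups did not overlap and the call was made both ways.

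Genes of epithelial junctions and surface proteolysis, chosen in the same way, were higher as well. CLDN4, a tight junction protein, rose from 0.708 ± 0.274 to 9.65 ± 1.36 FPKM, and ESRP2, a splicing regulator of epithelial cells, from 4.32 ± 0.144 to 19 ± 1.43 FPKM. The membrane protease ST14 and its inhibitor SPINT1 rose from 0.38 ± 0.0893 to 4.72 ± 0.897 and from 1.89 ± 0.41 to 14.9 ± 2.17 FPKM. FUT3, the fucosyltransferase that makes Lewis antigens, read 15.2, 14.1 and 18.1 FPKM against 1.17, 0.573 and 0.836. As these genes were picked for their rise, their number carries no weight.

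Calls were also counted by gene type. Of 10780 protein-coding genes 994 were called higher and 1233 lower (11.4%). The lower calls made up 35.1% of 342 small nuclear RNA genes, 36.8% of 223 miscellaneous RNA genes and 27.7% of 642 processed pseudogenes, and 8 of 73 transcribed unprocessed pseudogenes were called lower. With the GC trend removed there were 566 higher and 400 lower calls in protein-coding genes, 47 and 52 in small nuclear RNAs, 17 and 37 in miscellaneous RNAs and 37 and 129 in processed pseudogenes. The NONCODE genes, which were not tested, held 12.3% to 14.5% of the summed FPKM in resistant and 20.4% to 25.5% in parental libraries. By chromosome, the median log2 fold change ran from -0.68 on chromosome 13 to 0.47 on chromosome 22, and from -0.21 on chromosome 4 to 0.15 on chromosome 22 with the GC trend removed.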
